A study of Zea mays with 6 samples.

Results

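The 4 maize genes described here encode subunits of Polycomb repressive complex 2 (PRC2) and were chosen by identifier. The rule uses no measured value, but the choice was made with earlier results of these data known. They are GRMZM2G118205, GRMZM2G148924, GRMZM5G875502 and GRMZM2G043484, and all 4 were found among the 39448 genes of each table. The choice listed them as fie1, fie2, mez1 and mez2, but the RefSeq gene table pairs the identifiers differently. It gives GRMZM2G118205 as fie1 and GRMZM2G148924 as fie2, and it gives GRMZM5G875502 as mez2 and GRMZM2G043484 as mez3. In that table mez1 is GRMZM2G157820, a gene outside the 4. The names of the RefSeq table are used below, and mez1 is described beside the others as a gene of the same complex.

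Expression was measured by RNA sequencing in whole endosperm, the part of the kernel that stores starch and protein, harvested 10 days after pollination. There were 3 libraries from the floury3 (fl3) mutant, whose kernels are soft and opaque, and 3 from wild type (WT), described as independent biological replicates. All plants were grown in 1 experimental field in summer. For the inbred background, the direction of the crosses and the number of kernels behind a library, the sources used here give nothing. Values are FPKM, fragment numbers scaled by gene length and library total, so that levels of different genes can be compared.

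PRC2 methylates a lysine of histone H3 and keeps target genes silent. Its catalytic subunit carries a SET domain and is a homologue of Drosophila Enhancer of zeste, E(z), and the maize genes are named mez. A WD40-repeat subunit, named FIE in plants after the Arabidopsis gene whose loss lets endosperm start without fertilization, binds the catalytic subunit. The other core subunits are a VEFS-domain protein and a histone-binding WD40 protein of the p55/MSI type. In maize endosperm, fie1 and mez1 are known as imprinted genes expressed from the maternal alleles. fie2 is expressed in embryo and vegetative tissues as well, and mez2 and mez3 are known as not imprinted. The files hold no allele information, so imprinting itself was not measured.

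The FPKM sum of a library lay between 465741 and 480602, and read counts and sequencing depth are unknown. The floury3 gene itself (GRMZM2G006585) was listed at 3084 to 3214 FPKM in fl3 and 2100 to 2427 FPKM in WT. The mutant allele is known to change the protein, so the transcript level does not check the labels. Correlations of log2(FPKM + 1) across 17272 genes were 0.988 to 0.991 among fl3 libraries, 0.992 to 0.995 among WT libraries and 0.895 to 0.900 for an fl3 with a WT library. The points are genes, not independent replicates.

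The comparison of fl3 with WT addresses how the mutant endosperm differs in transcript levels. Each gene with a mean of at least 1 FPKM was tested with limma on log2(FPKM + 1), and a gene is said to have risen or fallen where its Benjamini-Hochberg adjusted p over all 17272 tested genes was under 0.05. All 4 genes passed the filter and all 4 were called, fie2 and mez3 higher and fie1 and mez2 lower in fl3. That count is to be read against a background in which 67.3% of tested genes were called, 43.5% higher and 23.8% lower, so being called does not set these genes apart. The FPKM ranges of the genotypes did not overlap for any of the 4, nor for 71.7% of tested genes. Over all tested genes the median log2 fold change was 0.14, which median-of-ratios scaling brought to 0.002. The split of calls moved with it, as 64.7% of all calls were higher in fl3 as deposited, 50.4% after median-of-ratios scaling and 48.3% after quantile normalization. The directions of the 4 genes and their calls held under these scalings.

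The highest of the 4 transcripts, fie1, was lower in the mutant. It had 91.9, 84.0 and 85.1 FPKM in the fl3 libraries, against 135.8, 125.7 and 126.7 FPKM in the WT libraries. Every fl3 library lay below every WT library, with a gap between the genotypes that was wider than the range within either. The means were 87.0 ± 4.27 FPKM in fl3 and 129.4 ± 5.57 FPKM in WT (SD, n = 3 each), a 1.49-fold lower level in fl3. The log2 fold change was -0.57 with an SE of 0.06 (limma adjusted p = 4.99e-05), and 33.7% of tested genes had a larger change in either direction.

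Its paralogue fie2, which encodes the same subunit, moved the other way from a much lower level. The fl3 libraries held 9.23, 9.85 and 9.14 FPKM, against 5.28, 4.62 and 5.31 FPKM in the WT libraries. The fl3 values were close together and all above the WT values. On average fie2 had 9.41 ± 0.384 FPKM in fl3 and 5.07 ± 0.39 FPKM in WT, a 1.86-fold higher level in fl3 (log2 fold change 0.78, SE 0.08, limma adjusted p = 3.51e-05). In absolute terms the fall of fie1 outweighed the rise of fie2, and fie1 and fie2 together summed to 96.4 ± 4.09 FPKM in fl3 and 134.5 ± 5.80 FPKM in WT (exact permutation p = 0.1, n = 3, the smallest that 3 against 3 allows). The counting step is not stated, so reads from stretches that fie1 and fie2 share may have been split between them, and the level of each copy is uncertain to that extent.

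**Figure D1:**
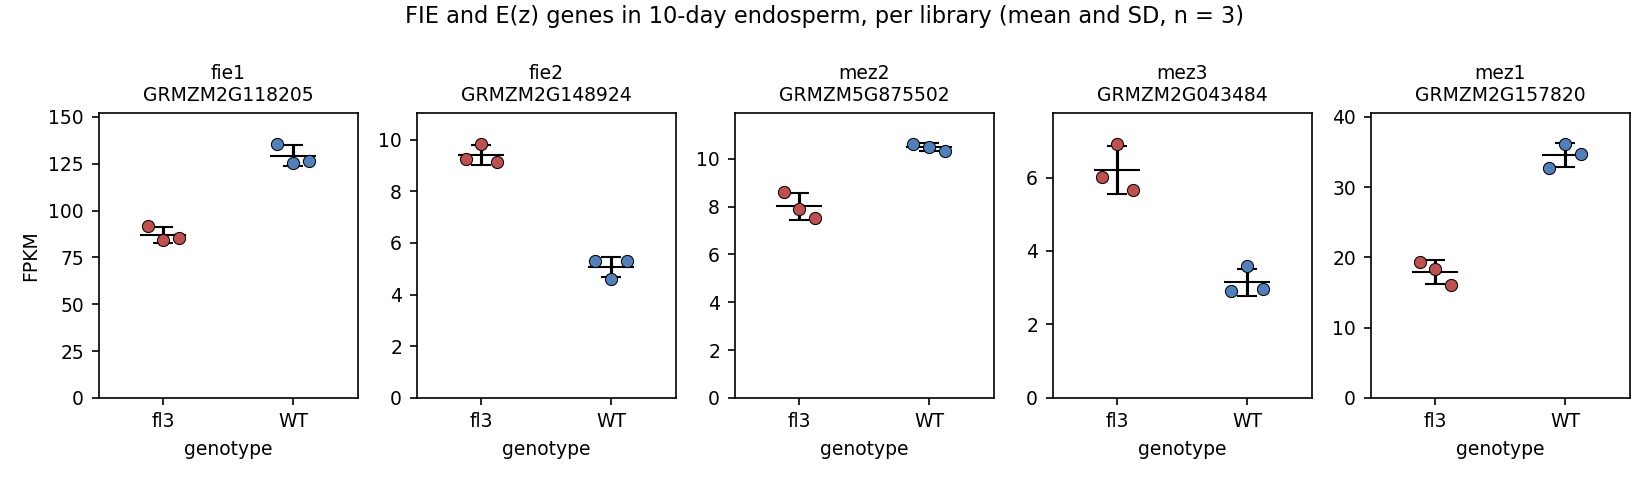
FPKM of 5 genes in each fl3 and WT library (points), with the mean (wide bar) and SD (error bar) of 3 libraries; each panel has its own linear axis from 0. fie2 and mez3 sit higher in fl3, and fie1, mez2 and mez1 sit higher in WT, with no overlap between genotypes in any panel.

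Among the catalytic subunits, mez2 fell modestly and mez3 rose. For mez2 the fl3 libraries had 8.63, 7.90 and 7.52 FPKM, against 10.6, 10.5 and 10.3 FPKM in the WT libraries. The WT values lay within a narrow band and the fl3 values spread over a wider range below it. Means were 8.02 ± 0.565 FPKM in fl3 and 10.5 ± 0.163 FPKM in WT (SD, n = 3 each), 1.31-fold lower in fl3 (log2 fold change -0.35, SE 0.07, limma adjusted p = 0.00208). This was the smallest change of the 4, and 53.3% of tested genes changed by more on the log2 scale.

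The gene mez3 was the lowest of the 4 in both genotypes and its log2 fold change was about that of fie2. It had 6.003, 6.93 and 5.67 FPKM in the fl3 libraries, against 2.90, 3.58 and 2.95 FPKM in the WT libraries. The highest library of each genotype was replicate 2, and the lowest fl3 library still lay above the highest WT library. The mean was 6.20 ± 0.652 FPKM in fl3 and 3.15 ± 0.378 FPKM in WT, a 1.97-fold higher level in fl3 (log2 fold change 0.80, SE 0.10, limma adjusted p = 0.000153). Because 1 was added before the logarithm, this fold change understates the ratio of so low a gene, and with 0.1 added it was 0.96. Summed, mez2 and mez3 came to 14.2 ± 0.896 FPKM in fl3 and 13.6 ± 0.417 FPKM in WT, a difference within the spread between libraries (exact permutation p = 0.4, n = 3). As for the FIE genes, reads from any stretches that mez2 and mez3 share may have been split between them, which was not tested.

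mez1 (GRMZM2G157820), the imprinted catalytic subunit, fell further than mez2. Its values were 19.3, 18.4 and 16.05 FPKM in the fl3 libraries, against 32.8, 36.2 and 34.8 FPKM in the WT libraries. The genotypes were well apart, at 17.9 ± 1.70 FPKM in fl3 and 34.6 ± 1.73 FPKM in WT, a 1.93-fold lower level in fl3 (log2 fold change -0.91, SE 0.08, limma adjusted p = 1.55e-05). With mez1 included, the E(z) transcripts summed to 32.1 ± 2.55 FPKM in fl3 and 48.2 ± 2.01 FPKM in WT (exact permutation p = 0.1, n = 3).

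**Figure D2:**
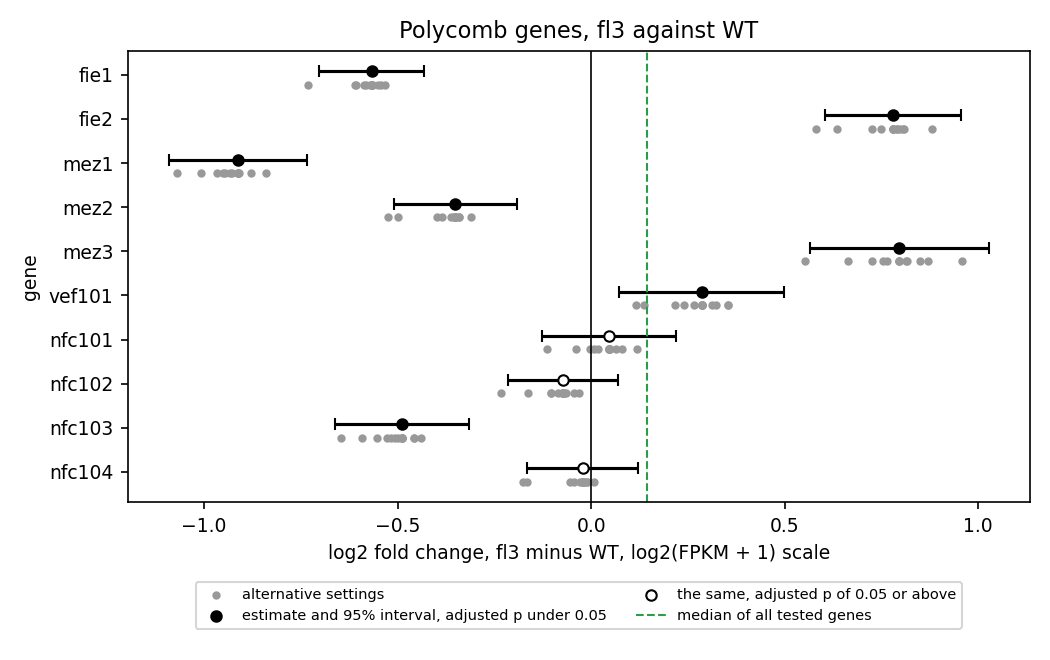
Log2 fold change (fl3 minus WT, horizontal axis, log2(FPKM + 1) scale) of 10 Polycomb genes, with the 95% interval from limma; filled points passed an adjusted p of 0.05, open points did not, and small grey points give the estimate under each alternative setting. fie1, mez1, mez2 and nfc103 lie left of 0 and fie2, mez3 and vef101 right of it under every setting run. The dashed line marks the median of all tested genes in the main fit, at 0.145. vef101 lies left of that line under median-of-ratios scaling (0.137) and quantile normalization (0.115). Under those scalings the median of all tested genes was itself 0.002 and -0.018.

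The order of the levels differed between genotypes. In fl3 it ran fie1, mez1, fie2, mez2, mez3, and in WT fie1, mez1, mez2, fie2, mez3. The ranges of neighbours in each order did not overlap. In fl3 the gaps were narrow, with the lowest fie2 library at 9.14 FPKM and the highest mez2 library at 8.63 FPKM, and the lowest mez2 library at 7.52 FPKM and the highest mez3 library at 6.93 FPKM. Among all genes above 0, fie1 stood at rank 915 in fl3 and 544 in WT by mean FPKM. The other 3 were transcripts of middle rank. The level of fie2 exceeded that of 69.0% of such genes in fl3 and 58.9% in WT, and that of mez3 60.2% in fl3 and 50.9% in WT. For mez2 the figures were 65.5% in fl3 and 72.7% in WT.

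Ratios of a pair of genes within a library do not depend on how libraries are scaled to each other. The fie1 to fie2 ratio was 9.96, 8.54 and 9.31 in the fl3 libraries, against 25.7, 27.2 and 23.9 in the WT libraries. It was thus lower in every mutant library, by 1.47 on the log2 scale or 2.76-fold. The mez2 to mez3 ratio was 1.44, 1.14 and 1.33 in the fl3 libraries, against 3.66, 2.93 and 3.49 in the WT libraries, 2.58-fold lower in fl3. The paralogues of each pair were therefore closer to equal levels in the mutant, though neither order turned round. Each ratio gave p = 0.1 in a two-sided exact permutation test (n = 3 each), the smallest possible, so that neither could pass the threshold.

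Another 4 ratios were chosen after their values had been seen, and each also gave p = 0.1 by the exact test, with 0.1 after adjustment over the 6 ratios. fie2 to mez2 was 1.18 ± 0.0947 in fl3 and 0.484 ± 0.039 in WT (SD, n = 3 each), which is the change of order noted above. mez1 to mez3 was 2.90 ± 0.288 in fl3 and 11.1 ± 0.852 in WT, the widest shift of the 6. mez1 to mez2 was 2.24 ± 0.0985 in fl3 and 3.30 ± 0.194 in WT. The imprinted genes also moved by different amounts, as fie1 to mez1 was 4.87 ± 0.384 in fl3 and 3.75 ± 0.35 in WT.

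**Figure D3:**
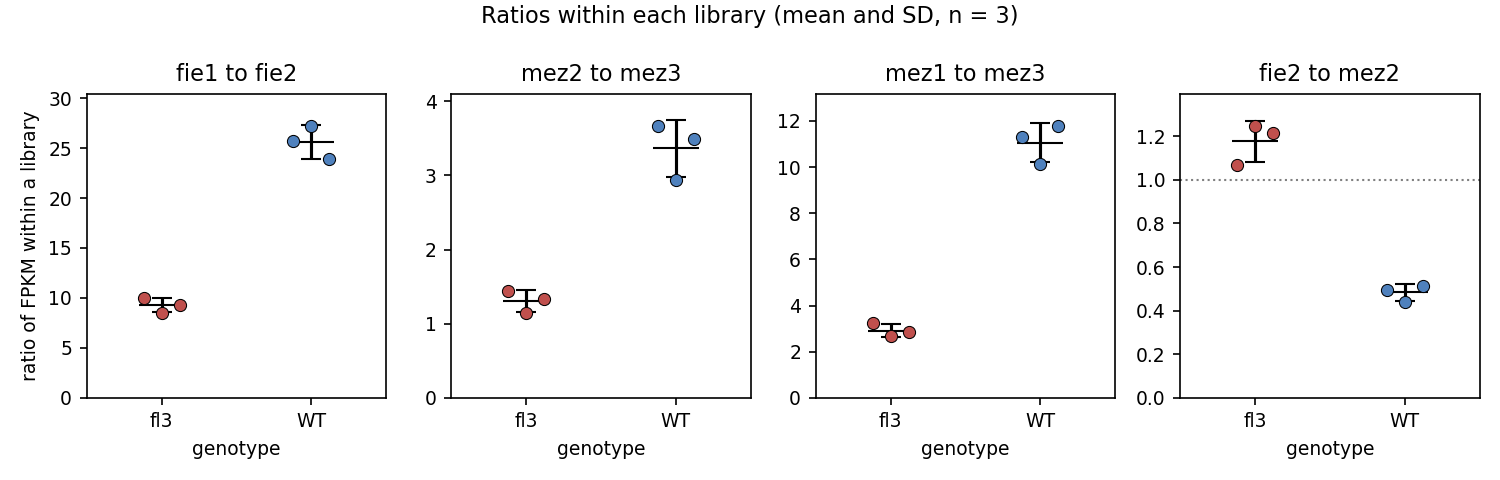
Ratio of FPKM between 2 genes of the same library (vertical axis, linear from 0) in the fl3 and WT libraries, with mean and SD of 3 libraries; the dotted line in the last panel marks equal levels. The fl3 libraries lie below the WT libraries for fie1 to fie2, mez2 to mez3 and mez1 to mez3, and above them and above 1 for fie2 to mez2.

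As shares, fie1 made up 90.2% ± 0.684 of the FPKM of fie1 and fie2 in fl3 and 96.2% ± 0.238 in WT (SD, n = 3 each). Among the E(z) genes, mez1 made up 55.7% ± 1.06 in fl3 and 71.7% ± 0.848 in WT. The share of mez3 was 19.3% ± 1.59 in fl3 and 6.51% ± 0.529 in WT, and that of mez2 24.96% ± 1.05 in fl3 and 21.8% ± 1.08 in WT. The mutant therefore drew a larger part of its catalytic-subunit transcripts from mez3, and also from mez2 although the level of mez2 itself fell. No share overlapped between genotypes (exact permutation p = 0.1 for each, the smallest possible). The shares are computed from the same values as the ratios and are no separate test of them.

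**Figure D4:**
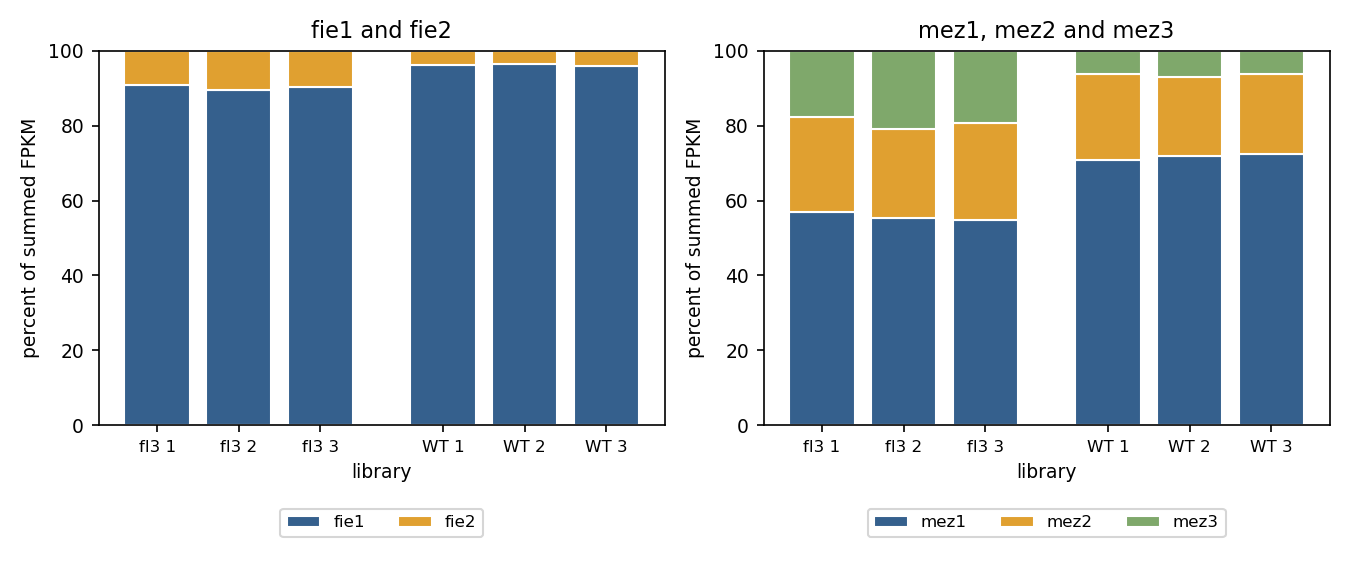
Percent of summed FPKM contributed by each gene in each of the 6 libraries, for the FIE genes (left) and the E(z) genes (right). In fl3, fie2 takes 9.12% to 10.5% of the FIE sum against 3.55% to 4.02% in WT, and mez3 takes 17.7% to 20.8% of the E(z) sum against 6.15% to 7.12% in WT.

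The remaining PRC2 genes with a name in the table had smaller log2 fold changes than the FIE and E(z) genes, apart from nfc103. Of the 6 other Polycomb genes measured, mez1 included, 1 rose, 2 fell and 3 did not pass, where 43.5% of all tested genes rose and 23.8% fell. Their median log2 fold change was -0.05, against 0.14 over all tested genes. vef101 (GRMZM2G157422), which encodes the VEFS-domain subunit, had 9.26, 11.4 and 10.3 FPKM in the fl3 libraries, against 7.99, 9.14 and 7.67 FPKM in the WT libraries. The nearest values of the genotypes almost met, and the rise (log2 fold change 0.29, SE 0.09, limma adjusted p = 0.0242) was lost under median-of-ratios scaling (limma adjusted p = 0.214), under quantile normalization (limma adjusted p = 0.295) and without fl3 replicate 2 or 3 or WT replicate 1 or 3 (limma adjusted p from 0.0542 to 0.0893).

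The 4 genes of the p55/MSI type, named nfc, encode histone-binding subunits that also serve in other chromatin complexes. nfc103 (GRMZM2G023372) fell, with 21.4, 18.7 and 18.7 FPKM in the fl3 libraries, against 26.3, 29.9 and 27.4 FPKM in the WT libraries (log2 fold change -0.49, SE 0.08, limma adjusted p = 0.00049). nfc101 (GRMZM2G137965) averaged 35.5 ± 1.79 FPKM in fl3 and 34.5 ± 3.24 FPKM in WT (SD, n = 3 each). Its log2 fold change of 0.05 (95% interval -0.13 to 0.22) turned negative under median-of-ratios scaling, under quantile normalization and without WT replicate 3. nfc102 (GRMZM2G316113) averaged 28.1 ± 1.19 FPKM in fl3 and 29.7 ± 1.62 FPKM in WT, a log2 fold change of -0.07 (95% interval -0.21 to 0.07) that passed under both of these scalings. nfc104 (GRMZM2G032711) averaged 12.6 ± 0.586 FPKM in fl3 and 12.8 ± 0.381 FPKM in WT. Its log2 fold change of -0.02 (95% interval -0.17 to 0.12) passed under median-of-ratios scaling, at -0.18, and turned positive without fl3 replicate 1. The intervals of nfc101, nfc102 and nfc104 exclude changes as large as those of fie1, fie2, mez1 and mez3. Over all 10 Polycomb genes 3 rose, 4 fell and 3 did not pass, a share of calls close to the 67.3% of all tested genes.

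Genes that act in neighbouring layers of chromatin control were counted as lists found by symbol. Of 5 measured SET-domain histone methyltransferases outside the mez family, 2 rose, 1 fell and 2 did not pass, close to the 43.5% higher and 23.8% lower of all tested genes. SDG123 (GRMZM2G080462) rose to 4.25 ± 0.225 FPKM in fl3, against 2.13 ± 0.231 FPKM in WT, and sdg110 (GRMZM2G130910) to 10.6 ± 1.17 FPKM in fl3, against 7.75 ± 0.319 FPKM in WT (log2 fold changes 0.75 and 0.40, limma adjusted p = 0.000118 and 0.00321). sdg113 (GRMZM2G139710) fell by 0.33 on the log2 scale. sdg107 (GRMZM2G357972) had a log2 fold change of 0.13, did not pass, and turned negative under both scalings. The median of the list was 0.13, close to that of all tested genes.

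DNA methylation acts on imprinted maize genes alongside PRC2. Of 17 gene models matched to DNA methylation, demethylation and methyl-binding symbols, 16 were tested: 7 rose, 2 fell and 7 did not pass. Their median log2 fold change was 0.11. Of all 17272 tested genes 4107 fell, or 23.8%. Under each of the 2 other scalings 6 of the list fell. Lower calls over all tested genes also went up there, to 5947 by quantile normalization and 5758 by median-of-ratios scaling. The move is therefore not particular to this list. With 1 library left out 1 to 3 of the list fell. The largest change was that of rmr2 (GRMZM2G009208), a gene required to maintain paramutation, at 13.9 ± 0.621 FPKM in fl3 and 6.61 ± 0.412 FPKM in WT (SD, n = 3 each; log2 fold change 0.97, limma adjusted p = 6.84e-06). mop1 (GRMZM2G042443), an RNA-dependent RNA polymerase of the small-RNA pathway that directs DNA methylation, had 15.9 ± 0.42 FPKM in fl3 and 10.6 ± 0.198 FPKM in WT (log2 fold change 0.54). The methyl-binding-domain genes mbd108 (GRMZM2G168269) and mbd115 (GRMZM2G157470) rose by 0.58 and 0.53 on the log2 scale. The count that rose is near the 43.5% of all tested genes that did.

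Among other genes named in work on maize imprinting, 5 models matched and 4 were tested: 1 rose, 1 fell and the others did not pass, where 43.5% of all tested genes rose and 23.8% fell. NRP1 (GRMZM2G062650), maternally expressed in endosperm, fell, with 158, 215 and 214 FPKM in the fl3 libraries, against 401, 409 and 431 FPKM in the WT libraries (log2 fold change -1.09, SE 0.12, limma adjusted p = 5.39e-05). Its direction was thus that of fie1 and mez1. MEG1 (GRMZM2G354335), a gene of the basal transfer layer, had 191, 330 and 158 FPKM in the fl3 libraries, against 158, 149 and 113 FPKM in the WT libraries. The genotypes overlapped, and its rise (log2 fold change 0.63, limma adjusted p = 0.0484) did not hold when a library other than fl3 replicate 3 was left out (limma adjusted p from 0.053 to 0.153), nor under either scaling, without the filter, without the variance trend or with 0.1 added. Without fl3 replicate 2 its log2 fold change was 0.33. The models matched to meg2, GRMZM2G088896 and GRMZM2G094054, had log2 fold changes of 0.30 and -0.34 and did not pass. The first passed without fl3 replicate 3 (0.77), and the other under both scalings and without WT replicate 3 (-0.50 to -0.39). If their sequences are alike, reads may be split between these 2 models, which was not tested.

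Markers of the tissues in and around the endosperm differed between the genotypes. In whole tissue, fewer cells of a type and less RNA per cell cannot be told apart. Starchy endosperm markers, which check the labelled tissue, were abundant in every library, summing to 13548 to 18216 FPKM in fl3 and 27036 to 32085 FPKM in WT over 16 gene models. Of the 15 tested, 13 fell and 1 rose, where 23.8% of all tested genes fell and 43.5% rose. In the same direction as this list moved fie1, mez1 and mez2. The embryo-surrounding region comprises endosperm cells that line the young embryo. All 5 of its markers rose in fl3, where 43.5% of all tested genes did. They summed to 471 to 612 FPKM in fl3 and 141 to 179 FPKM in WT.

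Embryo markers summed to 234 to 265 FPKM in fl3 and 154 to 170 FPKM in WT over 10 gene models, most of it from the oleosin ole16 (GRMZM2G337229), which aleurone also expresses. Of 5 tested, 3 rose and 2 did not pass, where 67.3% of all tested genes were called. Those that did not pass were wox2A (GRMZM2G108933), at 6.37 ± 0.901 FPKM in fl3 and 6.53 ± 1.06 FPKM in WT, and a model matched to glb1 (GRMZM2G067919), at 12.3 ± 1.24 FPKM in fl3 and 10.4 ± 1.58 FPKM in WT. lec1 (GRMZM2G011789), an embryo regulator below the filter, was listed at 1.66, 1.03 and 1.07 FPKM in the fl3 libraries, against 0, 0.0421 and 0 FPKM in the WT libraries. The meristem gene kn1 (GRMZM2G017087) was at 0.133 to 0.427 FPKM in fl3 and 0 to 0.0729 FPKM in WT, and wox5B was at or near 0 in all libraries. vp1 (GRMZM2G133398) rose to 3.70 ± 0.579 FPKM in fl3, against 1.56 ± 0.153 FPKM in WT (limma adjusted p = 0.000158). Another model, matched to GLB1 (GRMZM2G067402), rose to 6.03 ± 0.611 FPKM in fl3, against 2.53 ± 0.482 FPKM in WT (limma adjusted p = 9.57e-05). fie2 and mez3 moved in the same direction as vp1, ole16, this GLB1 model and the embryo-surrounding markers. So did 43.5% of all tested genes, while wox2A and the glb1 model GRMZM2G067919 did not pass the test. The part of any of these tissues in the changes of the 4 genes was not tested.

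The basal transfer layer and aleurone lists held members moving each way. Of 11 basal transfer layer markers 3 rose, 1 fell and 7 did not pass, where 43.5% of all tested genes rose and 23.8% fell. The 3 include MEG1, which was also counted with the imprinted genes and whose call was lost under 10 of 14 alternatives. The markers summed to 3044 to 5793 FPKM in fl3 and 2911 to 4069 FPKM in WT. Among them bap-1a (GRMZM2G008271) averaged 12.3 ± 6.97 FPKM in fl3 and 77.4 ± 23.5 FPKM in WT (SD, n = 3 each), a log2 fold change of -2.66. The marker betl3 (GRMZM2G175976) averaged 25.9 ± 15.8 FPKM in fl3 and 4.92 ± 0.568 FPKM in WT, a log2 fold change of 2.03. Aleurone markers summed to 498 to 524 FPKM in fl3 and 472 to 480 FPKM in WT, with c1 and r1 at 0 in all libraries. Of 6 tested, 2 rose, 1 fell and 3 did not pass, to be read against the same shares of all tested genes. The receptor kinase gene cr4 (GRMZM2G051637) rose to 15.7 ± 0.542 FPKM in fl3, against 4.65 ± 0.503 FPKM in WT, a log2 fold change of 1.57. Of 21 gene models matched to symbols of green tissue, 19 were below the filter. The others, which rose as did 43.5% of all tested genes, were psat1, known as a serine synthesis gene, and Pep1. Without them the list summed to 1.72 to 3.38 FPKM in fl3 and 1.57 to 2.52 FPKM in WT.

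For each of the 4 genes the 3 named genes of most similar pattern were taken, by the root mean square difference of log2(FPKM + 1) over the 6 libraries after each gene's own mean was subtracted. Only 121 tested genes had an informative symbol in the symbol column of the table. With so few libraries in 2 groups the measure mainly follows the difference between genotypes and the library values that all genes share. The nearest to fie1 were sbp7 (GRMZM2G098557), IDP798 (GRMZM2G036050) and RAB2B (GRMZM2G173878), at 0.0581, 0.0694 and 0.0801 log2 units. The nearest to fie2 were CNR13 (GRMZM2G027821), dhar1 (GRMZM5G855672) and VP8 (GRMZM2G010353), at 0.0751, 0.0756 and 0.0965. Those of mez2 were PHS1 (GRMZM2G100103), AO1 (GRMZM2G141535) and sm1 (GRMZM2G031311), at 0.0593, 0.0661 and 0.0708. Those of mez3 were IDP755 (GRMZM2G089976), SMK2 (GRMZM2G023528) and mbd108, at 0.0953, 0.118 and 0.13. These patterns were common. Counting genes without a name, 312 tested genes were as near to fie1 as RAB2B, 394 as near to fie2 as VP8, 410 as near to mez2 as sm1 and 631 as near to mez3 as mbd108.

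The spread between replicates of the 4 genes was ordinary for their level in most cases. The coefficient of variation of fie1 was 4.91% in fl3 and 4.31% in WT, where tested genes within 1.2-fold of its level had medians of 5.33% and 5.06%. mez3 varied most, at 10.5% in fl3 and 12.01% in WT, with medians of 8.14% and 10.5% for genes of like level. mez2 stood out by its evenness in WT, at 1.56% against a median of 6.56%, while in fl3 it varied by 7.05% against a median of 7.35%. For fie2 the values were 4.08% in fl3 and 7.69% in WT, against medians of 7.10% and 8.29%.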

How the data were processed

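RNA from endosperm of 3 fl3 and 3 WT samples was sequenced, and the authors deposited 1 table of FPKM values per library. TopHat, Bowtie2 and FastQC and the B73 RefGen_v3 genome are listed, per the submitters' processing notes, without a statement of what each was used for. Not given in the sources used here are the program behind the FPKM, the annotation, the use of strand and the treatment of reads shared by paralogues, any of which could shift single values. Ratios of low values between libraries showed no steps of whole reads (at most 3.65% of 3968 low genes in a bin 2% wide), so read counts, depth and counting intervals are unknown and no count test was run.

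Names came from the RefSeq gene table of Zm-B73-REFERENCE-NAM-5.0, to which 18906 of 39448 identifiers matched, 521 of them to more than 1 gene. Its build differs from that of the files, so no coordinates are given. No sequences are shown because none were used here.

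The limma fit (version 3.58.1, R 4.3.3, lmFit and eBayes with trend) ran on log2(FPKM + 1) of the 17272 genes whose mean reached 1 FPKM, with no term but genotype and two-sided p-values, after Benjamini-Hochberg adjustment. The fit was also run on simulated data in which few genes changed, so that check does not bear on the scaling between libraries. Ratios and sums were compared with exact permutation tests in SciPy 1.17.1. Named genes were the 4 members, all other Polycomb genes of the list, up to 4 of each further list by size of change, and the 3 most similar named genes per member. Members of the tissue marker lists are given as examples. The members and lists were chosen with earlier results of these data known. The p-values measure the spread between these samples.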

Additional observations from a re-analysis of the deposited data

How the results depend on the processing

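The directions and calls of fie1, fie2 and mez2 held under all 14 alternatives and those of mez3 under the 13 that could be run, since its mean lies below the minimum of 5 FPKM. Leaving out each library in turn gave log2 fold changes of -0.61 to -0.53 for fie1, 0.72 to 0.81 for fie2, -0.40 to -0.31 for mez2 and 0.73 to 0.87 for mez3. The log2 differences of ratios ranged from -1.52 to -1.41 for fie1 to fie2 and from -1.47 to -1.28 for mez2 to mez3. These leave-one-out ratios cannot go below p = 0.2 by the exact test. Deviations from the genotype mean correlated at -0.15, 0.07 and -0.02 for same-numbered libraries, against -0.14 to 0.13 for other numbers. With means of only 3 libraries these values cannot settle whether the numbers pair the libraries. With the replicate block 7240 genes were higher and 3897 lower in fl3. There fie1, fie2, mez2 and mez3 were called (limma adjusted p from 0.000265 to 0.00614).

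Counts of calls moved in places. With a minimum of 5 FPKM fewer genes were tested and 4771 were higher in fl3. Of the other Polycomb genes 0 were higher under median-of-ratios scaling, where 4 were lower, and 0 under quantile normalization (limma; vef101 kept its sign), and leaving out libraries gave 0 to 1 higher and 2 lower. nfc101 was at -0.12 under median-of-ratios scaling, -0.040 under quantile normalization and -0.0020 to 0.12 with a library left out, negative without WT replicate 3. nfc104 was at -0.054 to 0.0076 with a library left out, positive without fl3 replicate 1. sdg107 turned to -0.020 and -0.040 under median-of-ratios scaling and quantile normalization. SET-domain genes higher in fl3 came to 1 with the minimum of 5 FPKM, under which fewer were tested. DNA methylation genes lower in fl3 came to 6 under both scalings, 1 without the filter and 0 with the minimum of 5 FPKM, and to 1 to 3 with a library left out. Of the imprinted genes 0 were higher with a pseudocount of 0.1, without the filter, without the variance trend and under both scalings, which each had 2 lower; with a library left out 0 to 2 were higher and 1 to 2 lower. The counts over all 17272 tested genes moved under the scalings too. In the main fit 7519 were higher and 4107 lower in fl3. Median-of-ratios scaling gave 5841 higher and 5758 lower, and quantile normalization 5549 higher and 5947 lower. The cause of the moves in the lists was not tested. Depth is unknown, so the counting error behind the low values of mez3 cannot be given.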
